A study of Homo sapiens with 2 samples.

Results

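The 219 annotated 45S pre-rRNA units of the human rDNA arrays were compared, copy by copy and chromosome by chromosome, between a PAR-CLIP library from HEK293T cells stably expressing SFB-Ku80 and a library from HEK293T cells stably carrying the SFB empty vector. HEK293T, an established line, derives from human embryonic kidney and carries the SV40 large T antigen, and SFB-Ku80 is Ku80 fused to SBP and tandem FLAG tags. Cells of both groups received 0.1 mM 6-thioguanosine (6SG) overnight and 0.4 J/cm2 of UV light at 365 nm, which crosslinks proteins to RNA that carries the nucleoside, and the RNA was then purified over streptavidin and FLAG resin. There was 1 library per group, so no difference has a replicate check and no test was possible between the groups. The units were taken by place and length, as features that start below base 10000000 on chromosome 13, 14, 15, 21 or 22 of CHM13 draft v1.1 and span 13300 to 13400 bases. They are 219 of the 63494 annotated features. The deposited values are counts of reads per feature, with a read that maps to several places counted at every place the aligner reported, and pairs that mapped uniquely, counted per feature.

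Ribosomal RNA genes lie in tandem arrays on the short arms of the acrocentric chromosomes, where they form the nucleolar organizers. RNA polymerase I transcribes each unit into a long precursor in which 18S, 5.8S and 28S rRNA are separated by internal transcribed spacers (ITS1 and ITS2) and flanked by external ones (5′ETS and 3′ETS). The spacers are cut away during ribosome assembly in the nucleolus, so spacer sequence belongs to the precursor and not to mature rRNA. The mature parts also occur in cytoplasmic ribosomes. The copies are nearly identical, and between neighbours lies a long intergenic spacer that is not part of the precursor. Ku80 forms with Ku70 the heterodimer that binds DNA ends and recruits the kinase DNA-PKcs.

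The structure of the features was that of whole precursors. All 219 were on the plus strand as 1 continuous exon, and each enclosed exactly 3 other features. The first was 1869 bases long in 218 units and 1872 in the other, the second was 157 bases in all 219, and the third ran from 5039 to 5088 bases. RefSeq on GRCh38.p14 gives 1869 bases for 18S, 156 to 157 for 5.8S and 5054 to 5077 for 28S rRNA genes. Length differences between units lay mainly in 28S, with a range of 49 bases, and in the 5′ETS, which measured 3638 to 3666 bases. ITS1 varied from 1066 to 1082 bases and the 3′ETS from 353 to 369. ITS2 was nearly constant, at 1168 bases in 200 units and within 1167 to 1171 in all. The 657 enclosed features had 0 counts and 0 unique pairs in both libraries, since reads that touch an enclosed feature also touch the unit and were left unassigned. What the tables count on a unit therefore lies in its spacer stretches, 6240 to 6272 bases per unit. Strand was not used in these counts, and whether the reads come from uncut precursor was not tested.

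The units together held 573107 of 19775629 counts with the SFB empty vector and 3380416 of 17892815 in SFB-Ku80. Relative to all counts this was 2.90% (95% Wilson interval 2.89 to 2.91%) and 18.9% (18.87 to 18.91%) of the counts, a ratio of 6.52. In uniquely mapped pairs the units held 9896 of the 6062669 assigned to features with the SFB empty vector, 0.163%, and 60290 of the 1443251 in SFB-Ku80, 4.18%, a ratio of 25.6. Over all read pairs, assigned or not, the same pairs made up 0.0331% and 0.272%, a ratio of 8.21. Counts far exceeded unique pairs on the units. There were 57.9 counts for each unique pair on the units of SFB empty vector and 56.1 in SFB-Ku80, against 3.17 and 10.5 on all other features. This ratio does not give the part of the reads placed uniquely, since a multimapping read adds a count at every reported place. Of all read pairs, 25.1% of 29863974 with the SFB empty vector and 27.0% of 22173753 in SFB-Ku80 mapped to several places. Intervals here and throughout cover counting error only, and they are too narrow, since a multimapping read enters several counts and PCR copies of 1 molecule were not told apart.

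The 5 arrays did not hold counts in proportion to their number of units. Chromosome 13 carried the most units, 76 or 34.7%, and had 74036 counts with the SFB empty vector and 368829 in SFB-Ku80, only 12.9% and 10.9% of the 45S counts. Chromosome 14 carried the fewest, 16 or 7.31%, and had 151964 and 981607 counts, 26.5% and 29.0%. Chromosome 14 thus held the largest share of the 45S counts in SFB-Ku80, while chromosome 21, with 56 units, held the largest share with the SFB empty vector, at 27.0% against 23.6% in SFB-Ku80. The 50 units of chromosome 15 had 15.9% and 16.7% of the counts, and the 21 units of chromosome 22 had 17.7% and 19.8%. Per unit, the mean on chromosome 14 was 9498 counts with the SFB empty vector and 61350 in SFB-Ku80. The mean on chromosome 13 was 974 and 4853 counts, so the highest chromosome mean was 9.75 times the lowest with the SFB empty vector and 12.6 times in SFB-Ku80. The order of the chromosomes by mean counts per unit was 14, 22, 21, 15 and 13 in both libraries. By the median unit the gap was wider, and 3 of the 76 units carried most of the counts of chromosome 13. The median unit of chromosome 13 had 38 counts with the SFB empty vector and 171.5 in SFB-Ku80, against 9017 and 57012.5 on chromosome 14. The median of chromosome 15, 1082 and 8623 counts, lay below that of chromosome 21, 1343 and 6668, with the SFB empty vector and above it in SFB-Ku80.

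**Figure D1:**
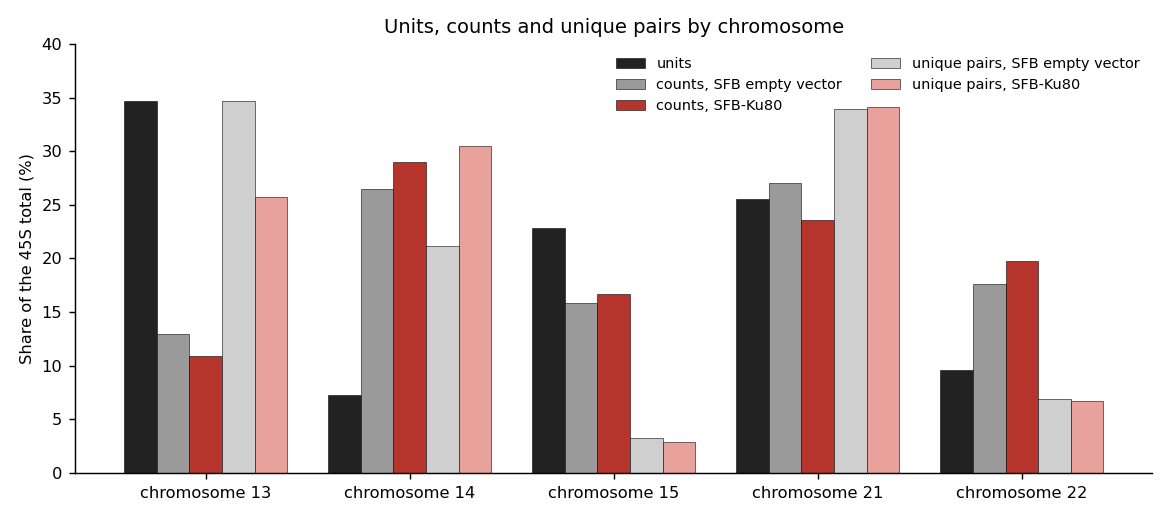
Share of the 45S total on each chromosome, in percent, as bars for the number of units, the counts and the uniquely mapped pairs of each library. Chromosome 13 has 34.7% of the units and 10.9% of the SFB-Ku80 counts, chromosome 14 has 7.31% of the units and 29.0% of those counts, and chromosome 15 falls to 2.86% in unique pairs.

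Unique pairs gave another order. Chromosome 21 had 3362 unique pairs with the SFB empty vector and 20595 in SFB-Ku80, 34.0% and 34.2% of those on 45S units. Chromosome 13 had 3435 and 15500, or 34.7% and 25.7%, and chromosome 14 had 2097 and 18402, or 21.2% and 30.5%. On chromosome 15 there were only 319 and 1726 unique pairs, 3.22% and 2.86%, and 285 and 326 counts for each. Chromosome 22 had 683 and 4067 unique pairs, 6.90% and 6.75%. The share of a chromosome in the 45S RNA of a library thus depended on the counter. Chromosome 13 had the lowest share of the counts with the SFB empty vector and the highest share of the unique pairs. For chromosomes 15, 21 and 22 the library with the higher share also changed. In counts the share was higher in SFB-Ku80 on chromosomes 15 and 22 and lower on 21, and in unique pairs it was lower on 15 and 22 and higher on 21. Those differences in unique pairs were at most 0.361 percentage points.

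Along the arrays the counts rose and fell in steps. The chromosome 14 array was nearly flat. Its first unit, LOFF_G0010304 at chr14:2103528-2116889, had 16417 counts with the SFB empty vector and 125067 in SFB-Ku80. The next 14 units had 8864 to 9098 and 55859 to 57459 counts, and the last, LOFF_G0010364, had 9790 and 63281. The chromosome 22 array had a similar form. Its first unit, LOFF_G0010792, had 4452 and 29478 counts, and the 17 units of that length had 4452 to 4870 and 29471 to 31774. The last, LOFF_G0010872, had 8984 and 60218, the most of this array.

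On chromosome 21 the first unit, LOFF_G0010568 at chr21:3112036-3125409, had 16697 and 102713 counts. The 16 units behind it had 6221 to 6336 and 30308 to 31163, and the 37 after those 323 to 1523 and 1831 to 7299. The last, LOFF_G0010788, had 3122 and 18110. On chromosome 15 the first unit, LOFF_G0010368, had 2580 and 17001 counts, and the last, LOFF_G0010564, had 14493 and 76109, above every other unit of that array.

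**Figure D2:**
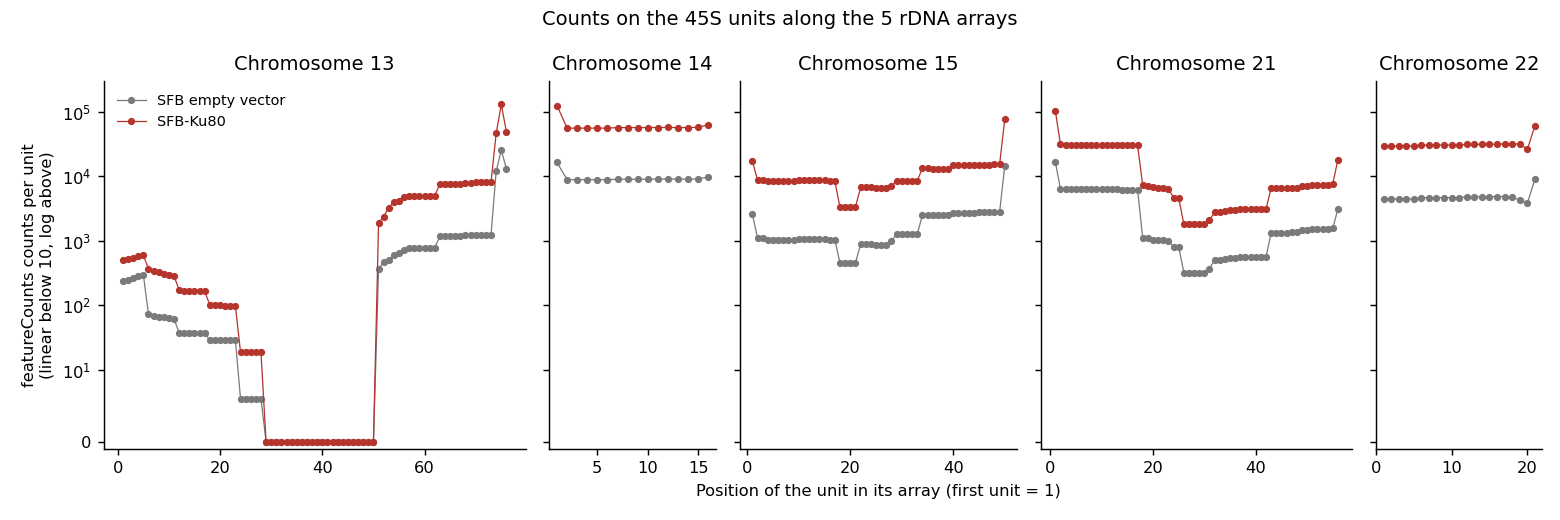
Counts on each 45S unit in the order of the units in their array, with 1 panel per chromosome and 1 point per unit and library, on an axis that is linear below 10 and logarithmic above. The lines of both libraries keep the same steps, units 29 to 50 of chromosome 13 are at 0 in both, and the first units of chromosomes 14, 15 and 21 and the last of chromosomes 14, 15, 21 and 22 stand above the unit beside them.

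Chromosome 13 had both the highest and the lowest units. Unit 75 of the 76, LOFF_G0010296 at chr13:9246541-9259894, had 25395 counts with the SFB empty vector and 129922 in SFB-Ku80, the highest value of all 219 in either library. Its neighbours LOFF_G0010292 and LOFF_G0010300, the latter the last unit of the array, had 11984 and 13108 counts with the SFB empty vector and 46176 and 48893 in SFB-Ku80. The other 73 units of this array all had the same length, 13381 bases, and none of them passed 1252 counts with the SFB empty vector or 8254 in SFB-Ku80. In the middle, the 22 units from 7089463 to 8089213 had 0 counts in both libraries. With independent counts a 0 would allow up to 3 per unit. Counts of copies were not independent, so the 0 sets no upper limit on RNA from these 22 units. The 28 units before them had 6 to 296 counts with the SFB empty vector and 19 to 595 in SFB-Ku80, and the 23 behind them had 365 to 1252 and 1904 to 8254. By the rule for the lowest units no 3 could be singled out, since these 22 were tied.

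Neighbouring units did not behave as independent counts. Of 196 pairs of neighbours with equal length, 175 had counts on at least 1 member. In SFB empty vector 68 of these 175 had identical counts and 127, or 72.6%, agreed within 1%, with a median difference of 2 counts. In SFB-Ku80 30 were identical and 119, or 68.0%, agreed within 1%, with a median difference of 7. The longest run of neighbours that each lay within 1% of the one before was 12 units, the second to the thirteenth of chromosome 21, in both libraries. Among the 16 units of 13343 bases on chromosome 21, the variance over units was 0.270 times the mean with the SFB empty vector, where independent counts would give about 1, and 1.87 times in SFB-Ku80. This was the lowest of the 8 shared lengths with the SFB empty vector. In 2 others the ratio with the SFB empty vector was 0.310 and 0.902, and in the remaining 5 it ran from 5.49 to 631. In SFB-Ku80 none of the 8 lay below 1. There the ratio ran from 1.20, for the units of 13331 bases on chromosome 15, to 4449, for those of 13381 bases on chromosome 13. Copies of an array are thus not replicates of each other, and the counts of several copies can hold the same reads.

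Over all 219 units the spread was wide and alike in both libraries. The mean was 2617 counts per unit with the SFB empty vector with an SD over units of 3589, and 15436 in SFB-Ku80 with an SD of 20910, coefficients of variation of 137% and 135%. The highest unit stood at 23.8 times the median of 1068 counts with the SFB empty vector and at 17.8 times the median of 7299 in SFB-Ku80. The 10 highest units held 23.6% and 23.3% of the 45S counts. The units kept nearly the same order in both libraries, with Spearman's rho 0.979 and Pearson's r 0.995 of log2(counts + 1) over the 219 units. This is a description without a test, because the units share sequence, reads and alignment.

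Chromosome and unit length together separated the copies into 23 classes, each holding the units of 1 length on 1 chromosome. There were 20 distinct lengths, and some recurred on another chromosome, such as 13354 bases on 13 and 15. Here a unit has a length of its own when no other unit on its chromosome has that length. In 15 classes there was 1 unit, and in the other 8 the length was shared by 14 to 73 units. Units of a shared length followed each other at a nearly constant step. On chromosome 13 that step was 46970 bases for 71 of the units of 13381 bases. The 15 units with a length of their own had 1567 to 25395 counts with the SFB empty vector, median 8984, and 7720 to 129922 in SFB-Ku80, median 46176. The 204 units that share their length on their chromosome had 0 to 9098 counts, median 1047, and 0 to 57459, median 7095. The 15 units, 6.85% of all, held 24.3% and 23.6% of the 45S counts. Among the shared lengths, the class of 14 on chromosome 14 had a mean of 8983 counts with the SFB empty vector and 56661 in SFB-Ku80. That of 37 on chromosome 21 had 891 and 4790, and that of 73 on chromosome 13 had 323 and 1970.

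Counts per unit and number of units in the class went in opposite directions, with Spearman's rho -0.56 with the SFB empty vector and -0.58 in SFB-Ku80 over the 23 classes. Classes of about the same size also differed, with means of 896 to 2671 counts with the SFB empty vector in the 3 classes of 15 or 16 units on chromosome 15 and 6290 in the class of 16 on chromosome 21. The limit on places per read that the aligner used is not given in the sources used here, and its part in these levels was not tested. The classes were defined after the values had been seen.

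**Figure D3:**
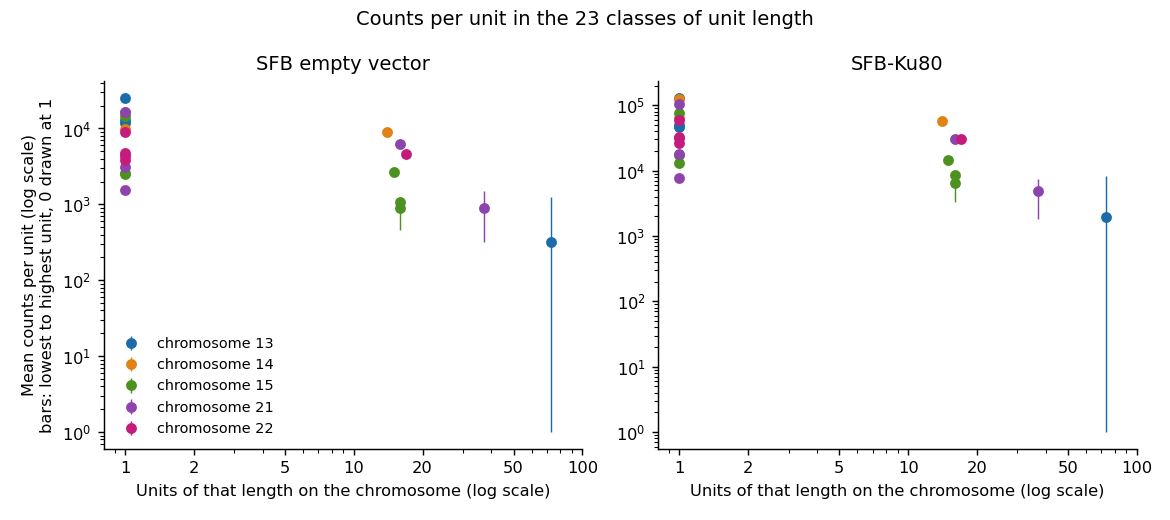
Mean counts per unit against the number of units that share the length on their chromosome, both on log axes, with 1 point for each of the 23 classes and bars from the lowest to the highest unit of the class (0 drawn at 1). The class of 73 units on chromosome 13 has the lowest mean in both libraries, 323 and 1970 counts, and the 15 classes of 1 unit spread from 1567 to 25395 counts with the SFB empty vector.

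Unique pairs came mainly from a few units at or near the ends of arrays. Of the 219 units, 17 had any with the SFB empty vector and 17 in SFB-Ku80, 16 of them in both, and 201 had none in either. Units with a length of their own held 9890 of the 9896 unique pairs with the SFB empty vector and 60188 of the 60290 in SFB-Ku80. All but 1 of these 15 units had unique pairs, the exception being the unit of 13343 bases on chromosome 15. The first unit of chromosome 21, LOFF_G0010568, had the most, with 3171 with the SFB empty vector and 18988 in SFB-Ku80. LOFF_G0010296 near the end of chromosome 13 had 2462 and 12707, and LOFF_G0010304 at the start of chromosome 14 had 1872 and 17192. These 3 units held 75.8% of the unique 45S pairs with the SFB empty vector and 81.1% in SFB-Ku80.

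The next were LOFF_G0010292 with 878 and 2473 unique pairs and LOFF_G0010872, the last unit of chromosome 22, with 529 and 2748. A unit could be high in counts and low in unique pairs. LOFF_G0010300, the last unit of chromosome 13, had only 95 and 320 unique pairs, with 138 and 153 counts for each, where LOFF_G0010568 had 5.27 and 5.41. The first and last units of the 5 arrays, 10 in all, held 64.6% and 72.4% of the unique pairs and 15.7% and 16.0% of the counts.

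The log2 ratio of SFB-Ku80 to SFB empty vector was taken for each unit, with a pseudocount of 1 and relative to all counts that fell outside these units. At least 100 counts over both libraries were found on 192 of the 219 units, and the 27 others are all on chromosome 13. Of the 17670 features of the series with that many counts, 7.93% were at least 2-fold higher in SFB-Ku80, and all 192 units were. The median log2 ratio was 3.06 over these units and -1.02 over the 17670 features. The ratio was not the same on every copy. It ranged from 1.41 to 3.43, a 4.06-fold difference between the lowest and the highest unit. Both counts in a ratio belong to the same annotated unit, so the length of the unit is shared. Whether the reads of both libraries fell on the same spacer stretches of a unit was not tested.

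The lowest ratios lay at the start of the chromosome 13 array. Its first 5 units had 235 to 296 counts with the SFB empty vector and 507 to 595 in SFB-Ku80, with log2 ratios of 1.41 to 1.51. From each of these units to the next the counts rose by 14 to 16 with the SFB empty vector and by 22 in SFB-Ku80. The 3 lowest were LOFF_G0010008, LOFF_G0010012 and LOFF_G0010016, with log2 ratios of 1.45, 1.43 and 1.41. The 23 units that follow had 6 to 73 and 19 to 371 counts and together a log2 ratio of 2.54, and the 23 units behind the stretch at 0 had one of 3.09. In the same array LOFF_G0010292 and LOFF_G0010300, with far more counts, also stood low, at 2.35 and 2.30.

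The highest ratios lay in the class of 16 units of 13331 bases on chromosome 15. LOFF_G0010428 had 1038 counts with the SFB empty vector and 8463 in SFB-Ku80, LOFF_G0010432 had 1038 and 8462, and LOFF_G0010424 had 1068 and 8645, which gave log2 ratios of 3.43, 3.43 and 3.42. Among the units with a length of their own, LOFF_G0010304 on chromosome 14 was highest, at 3.33. By chromosome, the median log2 ratio was 2.71 on 13, 3.06 on 14, 3.27 on 15, 2.705 on 21 and 3.11 on 22. Chromosomes 14 and 22 held narrow ranges, from 3.06 to 3.33 and from 3.10 to 3.31, and chromosome 21 ranged from 2.66 to 3.11. Units with their own length and units sharing one had nearly the same median, 3.02 and 3.06.

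**Figure D4:**
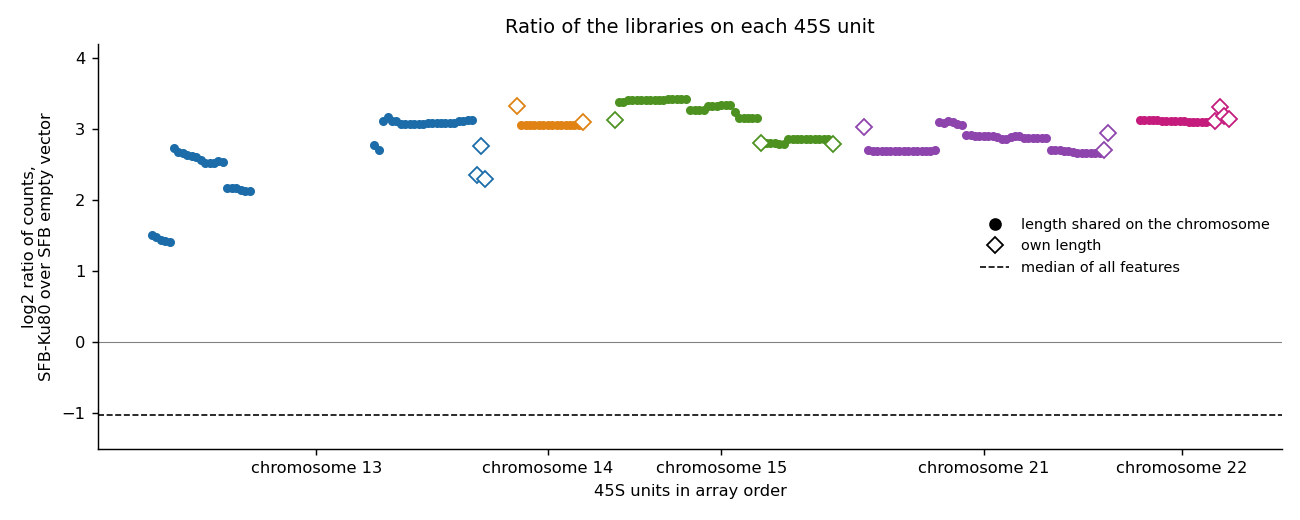
Log2 ratio of counts, SFB-Ku80 over SFB empty vector, for the 192 units with at least 100 counts over both libraries, in array order, with open diamonds for units whose length is their own on the chromosome. All points lie between 1.41 and 3.43, above the dashed line at -1.02 for the median feature, with the lowest at the start of chromosome 13.

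In unique pairs 12 units had at least 100 over both libraries, and all 12 were at least 2-fold higher in SFB-Ku80, against 18.0% of the 10217 features with that many. Relative to unique pairs outside the 45S units, their log2 ratios ran from 3.62 to 5.70 with a median of 4.52, beside a median of -0.28 over those features. LOFF_G0010292 was the lowest of the 12. LOFF_G0010868, the unit before the last on chromosome 22, was the highest, with 82 unique pairs with the SFB empty vector and 984 in SFB-Ku80. LOFF_G0010304 had a log2 ratio of 5.33, LOFF_G0010568 had 4.71 and LOFF_G0010296 had 4.50. The share of unique pairs held by the chromosome 14 array was 36.9 times as high in SFB-Ku80 (95% log-normal counting interval 35.2 to 38.6), and that of chromosome 13 was 18.96 times as high (18.3 to 19.7), the highest and the lowest of the arrays. Both, like the log2 ratios above, rest on pairs assigned to features. On that base the units together gave 25.6, against 8.21 over all read pairs. Pairs assigned to features numbered 6062669 of 29863974 with the SFB empty vector and 1443251 of 22173753 in SFB-Ku80. In counts the ratios of the arrays were closer together, from 5.51 on chromosome 13 to 7.30 on chromosome 22.

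Most unique pairs on the units had their first read on the strand opposite to the annotated one, as on the other features. The stranded columns gave 2256 pairs with the first read on the strand of the unit and 7640 on the opposite strand with the SFB empty vector, and 15702 and 44594 in SFB-Ku80. The first of these made up 22.8% (95% Wilson interval 21.98 to 23.63%) and 26.0% (25.7 to 26.4%). On all other features together they made up 24.9% and 32.6%. Over other features with at least 100 stranded pairs, the median was 17.8% of 9714 features with the SFB empty vector and 24.4% of 2381 in SFB-Ku80. These are different sets of features, with quartiles of 13.7 and 25.6% in the first and 14.6 and 53.4% in the second. Neither the labels nor the methods say whether the kit marks strand, so the share is given as read orientation and not as sense or antisense RNA.

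This share differed between units more than between libraries. Among the 11 units with at least 50 stranded pairs in each library it ran from 12.8% to 39.0% with the SFB empty vector and from 10.6% to 42.5% in SFB-Ku80. LOFF_G0010292 on chromosome 13 had the lowest share in both libraries, 12.8% of 878 pairs (10.7 to 15.1%) and 10.6% of 2473 pairs (9.44 to 11.9%). LOFF_G0010788, the last unit of chromosome 21, had 35.8% of 187 pairs (29.3 to 42.9%) and 42.5% of 1495 pairs (39.99 to 44.997%), and LOFF_G0010304 had 29.8% of 1872 pairs (27.7 to 31.9%) and 36.5% of 17194 pairs (35.8 to 37.2%). The first unit of chromosome 21, LOFF_G0010568, with the most pairs, had 19.7% and 20.4%.

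Between the libraries, the share was higher in SFB-Ku80 on 5 of the 11 units and lower on 6, and the counting intervals lay apart only for LOFF_G0010304. That unit held 18.9% of the unique 45S pairs with the SFB empty vector and 28.5% in SFB-Ku80. It gave 557 of the 2256 pairs with the first read on the strand of the unit with the SFB empty vector. In SFB-Ku80 it gave 6277 of the 15702. The pooled shares of 22.8% and 26.0% were not recomputed without it. Over the 11 units the shares of both libraries had Spearman's rho 0.74 and Pearson's r 0.81, given as a description.

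**Figure D5:**
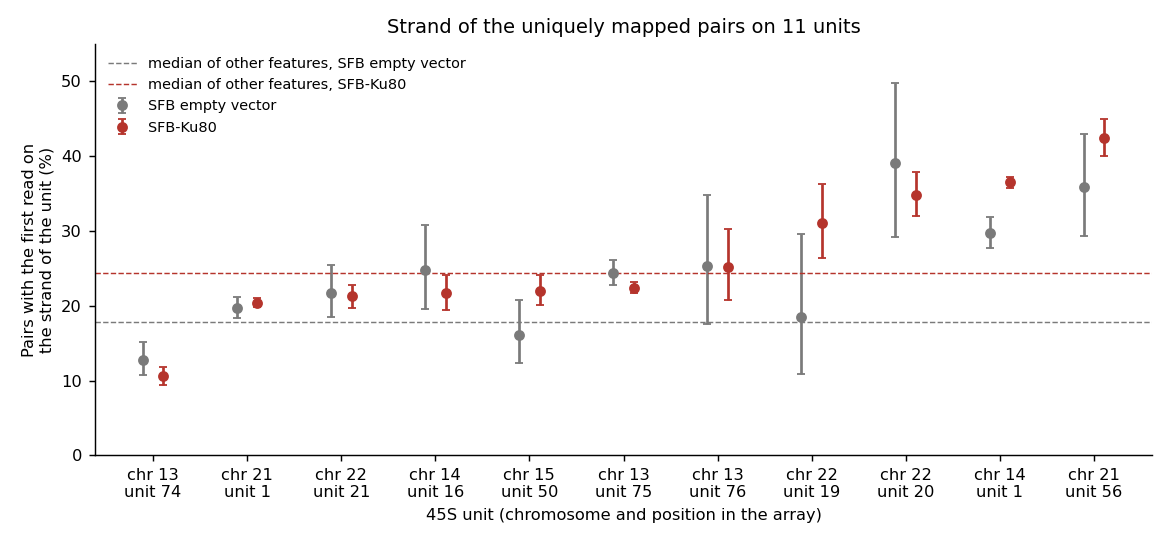
Share of uniquely mapped pairs whose first read lay on the strand of the unit, in percent, for the 11 units with at least 50 stranded pairs in each library, with 95% Wilson intervals that cover counting error only. Unit 74 of chromosome 13 is lowest in both libraries and unit 56 of chromosome 21 is highest in SFB-Ku80. The dashed lines mark the median of other features, 17.8% with the SFB empty vector (9714 features) and 24.4% in SFB-Ku80 (2381 features, a different set).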

How the data were processed

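PAR-CLIP RNA of SFB-Ku80 and SFB empty vector cells was sequenced in 1 library each. The authors deposited counts of reads per feature, made with featureCounts 2.0.2 from a STAR 2.7.6a alignment to CHM13 draft v1.1 with multimapping reads counted and strand not used, and counts of unique pairs per feature from STAR, in an unstranded and 2 stranded columns. The tool versions come from the command in the file headers and the submitters' processing notes. Annotated feature lengths in bases also come with the deposited tables. The authors' BLAST bin signal was not used, because bins of 1 consensus repeat do not tell copies apart.

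The units, lists and comparisons were chosen with earlier results of these data known. Shares, ratios and log2 ratios (pseudocount 1, at least 100 counts over both libraries, scaled to counts outside the units) were computed with Python 3.11.15, and TMM factors with edgeR 4.0.16 as an alternative. Intervals are 95% Wilson or log-normal. Depth was 19775629 counts with the SFB empty vector and 17892815 in SFB-Ku80. Units are named where they are among the 3 with the most or fewest counts, the 5 with the most unique pairs, the 3 highest or lowest ratios, or the first or last of an array. Named outside this rule, after their values were seen, is LOFF_G0010868. Cell type markers were not checked, because the count tables carry IDs without gene names.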

Additional observations from a re-analysis of the deposited data

How the results depend on the processing

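No paired analysis was possible because each group has 1 library. For each of the changed values below the cause was not tested. The 45S share ratio of 6.52 became 25.6 in unique pairs, 6.46 when features needed 10 or more counts per library and 8.21 in unique pairs over all read pairs. The chromosome 13 share of the 45S counts, 12.9% with the SFB empty vector and 10.9% in SFB-Ku80, became 34.7% and 25.7% in unique pairs, 4.90% and 3.93% from the mean count per unit, and 8.88% and 7.35% without the unit with the most counts, LOFF_G0010296. The coefficient of variation among units, 137% and 135%, became 677% and 705% in unique pairs, 129% and 130.5% without that unit, 136% and 130.6% without the first and last unit of each array, and 91.0% and 90.1% with 1 mean per length class, an alternative added after the values were seen. The share of pairs with the first read on the strand of the unit, 22.8% and 26.0%, became 24.2% and 28.6% without the unit with the most unique pairs, LOFF_G0010568, and as a median over units with at least 10 stranded pairs it was 23.1% and 23.3%. The median log2 ratio of the units, 3.06, became 2.80 scaled to all counts, 3.71 with edgeR TMM factors, 3.68 with median-of-ratios size factors, 3.05 with a pseudocount of 10 and 4.52 in unique pairs. It was 2.88 with no filter on low counts, where the 22 units at 0 enter at a value set by the pseudocount and the library totals, and 3.02 as the median over 1 median per length class, also added after the values were seen. The median over all features, -1.02, was -1.28, -0.37 and -0.40 under the first 3 of these scalings. The 45S share ratio and the median log2 ratio of the units stayed higher in SFB-Ku80 under every alternative. The chromosome 13 share stayed lower in SFB-Ku80, but with the SFB empty vector it went from the lowest of the arrays in counts to the highest in unique pairs. The coefficient of variation was slightly higher with the SFB empty vector, and the other way round in unique pairs and without LOFF_G0010296. Of the chromosome shares only that of chromosome 13 was recomputed under every alternative, and in unique pairs the library with the higher share changed for chromosomes 15, 21 and 22.

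With 201 of 219 units at 0 unique pairs in both libraries, the counts of most units rest on reads that map to several copies, and which copies the RNA came from cannot be told apart.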
